A study of Mus musculus with 12 samples.

Results

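The genes described here are 46 assembly factors of the mitochondrial respiratory complexes, taken from a fixed list of names: 14 for complex I, 4 for complex II, 6 for complex III, 18 for complex IV, 3 for complex V (ATP synthase) and 1 for cytochrome c. They were found by gene symbol among the 55401 genes counted in each library, 28 under the listed name and 18 under a synonym given by RefSeq. All 46 passed the filter on low counts, and their values were set against those of the structural subunits of the same complexes, of which 76 of 78 could be matched and tested.

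RNA of subcutaneous white adipose tissue (scWAT) was sequenced in 12 libraries, 1 per female mouse, with 3 mice in each of 4 groups. *Jmjd1a* +/+ animals (wild type) and *Jmjd1a* HY/HY animals were 16 weeks old, were first acclimated to 30°C, and then stayed at thermoneutrality (30°C) or moved to 8°C for 1 week. JMJD1A, also called KDM3A, is a demethylase that removes methyl groups from lysine 9 of histone H3, and the HY allele replaces a histidine that its catalysis needs with tyrosine. The allele was made by genome editing in the germ line and is carried in all tissues, so a difference in scWAT can begin in another organ. The labels do not name the mouse line, but the paper states that the females of its later experiments came from line #1. For the scarcity of HY/HY males in that line, the paper proposes sex reversal as a possible reason.

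The libraries held 13592629 to 26352081 read pairs counted on genes, of which levels are given as CPM, the usual unit of counts scaled to library size (here with TMM-scaled totals), as mean ± SD of 3 mice. *Kdm3a*, the mutated gene, stood at 35.6 to 61.6 CPM in the 12 libraries, and counts cannot tell its alleles apart. Adipocyte markers (*Adipoq*, *Plin1*, *Fabp4* and 3 others) were present throughout, at 11838 to 37475 CPM summed. The library of replicate 2 of *Jmjd1a* +/+ at 30°C held 1425 CPM of skeletal muscle markers, summed, against 4.23 to 24.2 CPM in the other 11. All 3 libraries of that group had a higher sum of the mammary epithelium markers, 2128 to 3867 CPM against 559 to 1573 CPM elsewhere. Most of that sum was *Krt8* and *Krt18*, with means of 975 and 1158 CPM there. Of the other markers, *Epcam*, *Cldn3*, *Elf5*, *Krt14* and *Krt5* also had their highest mean there. *Epcam* had 301 CPM against 140 to 179 CPM elsewhere, and *Cldn3* 103 against 38.2 to 57.8 CPM. The ranges of these genes overlapped those of HY/HY mice at 30°C. *Csn3* did not follow, with a mean of 60.6 CPM there and 134 CPM in HY/HY mice at 8°C. *Csn2* and *Wap* were barely detected in any group.

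The respiratory chain is built from subunits of nuclear and mitochondrial origin, and assembly factors are the proteins that bring the parts together without staying in the finished complex. Some act as chaperones that hold a subunit until its partner arrives, and others insert cofactors such as heme, copper, flavin or iron-sulfur clusters. Loss of many of them causes an isolated deficiency of 1 complex in humans. White fat has few mitochondria, and in the cold it forms beige adipocytes, which are rich in them.

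Cold raised most assembly factor genes in the scWAT of *Jmjd1a* +/+ mice. Of the 46 genes, 30 were called higher at 8°C than at 30°C and 0 lower, where a call needs an adjusted p under 0.05 in edgeR's quasi-likelihood test and a fold change above 1.5 or below 0.67. DESeq2 called 33 higher, against 11.6% of all genes, and 0 lower, and 0 were lower at an unadjusted p under 0.05. Among all 16540 genes tested, 10.3% were called higher and 6.93% lower. All 46 log2 fold changes were above 0, from 0.06 for *Surf1* to 1.77 for *Cox10*, with a median of 0.82 against −0.07 over all genes tested. Without the limits on fold change 34 members passed, against 13.2% of all genes. The 3 cold libraries all exceeded the 3 thermoneutral ones in 40 of the 46 genes, an arrangement that 20.7% of all genes tested showed.

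The size of these values depended on the scaling of the libraries. With library totals in place of TMM the median over all genes became −0.41, 18 members were called higher, and 40 of the 46 fold changes were above 0, while 6.39% of all genes were called higher and 4133 of the 16540 lower. Relative to the median of all genes, the members' median was 0.89 with TMM and 0.90 with library totals. Without the library that held muscle RNA, 28 members were called. In whole tissue, more cells of a type and more RNA per cell cannot be told apart, and beige adipocyte markers (*Ucp1*, *Cidea*, *Elovl3* and 3 others) moved with the members: their summed level was 71.2 to 198 CPM at 30°C and 8321 to 9229 CPM at 8°C in *Jmjd1a* +/+ mice, with 6 of 6 called higher. Of the 8 mammary epithelium markers tested 3 were called lower with cold in these mice, of the 7 skeletal muscle markers 6, and of the 6 adipocyte markers 1. The part of these cells in the result was not tested.

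In *Jmjd1a* HY/HY mice 0 of the 46 members were called higher or lower by cold, both with edgeR and with DESeq2, and 0.181% of all genes were called higher. At an unadjusted p under 0.05 in edgeR, 16 members were higher and 0 lower, against 7.65% of all genes higher. The median log2 fold change was 0.24 against −0.01 over all genes, 40 of the 46 values were above 0, and 13 members had every 8°C library above every 30°C library, against 9.33% of all genes. The 30 genes called in *Jmjd1a* +/+ mice, whose libraries are separate from those of this comparison, had a median of 0.31 here, ranging from −0.08 for *Sdhaf1* to 0.57 for *Foxred1*. The lowest adjusted p was 0.173, for *Sco1*, and the upper end of the 95% intervals reached 0.99, for *Ndufaf4*, so that a rise of up to that size in a single gene lay within the error.

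The count of 0 rested on 1 library. Replicate 3 of HY/HY at 30°C had the highest summed level of the members in its group, 1495 CPM against 1055 and 1246 CPM in the other 2, and also the highest adipocyte and beige marker sums, 35572 and 231 CPM. Without it, 9 members were called higher, against 2.72% of all genes, and the members' median was 0.33. Without HY/HY replicate 1 at 30°C, the lowest of the group in summed level, 0 were called and the median was 0.11. The 9, named after their values were seen, were *Ndufaf1*, *Acad9*, *Tmem126b*, *Foxred1*, *Sco1*, *Cox15*, *Atpaf2*, *Tmem70* and *Hccs*, with log2 fold changes between 0.64 and 0.79. Beige markers stood at 60.8 to 231 CPM at 30°C and 524 to 1663 CPM at 8°C in HY/HY mice, with 3 of 6 called higher by cold.

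**Figure D1:**
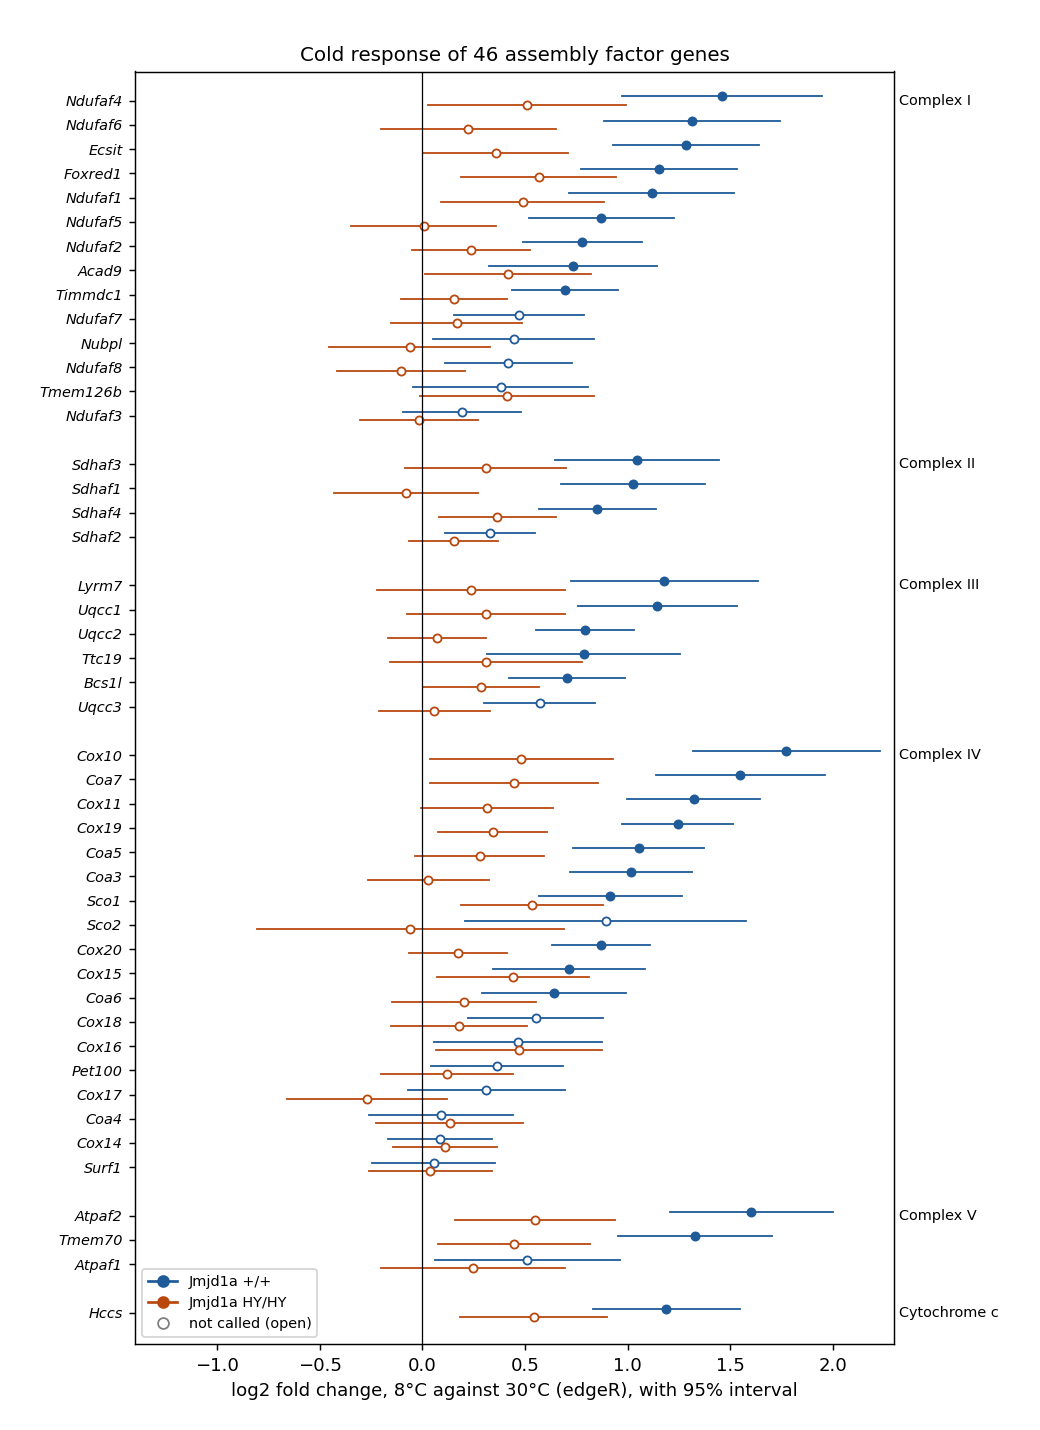
Log2 fold change at 8°C against 30°C (x axis, edgeR, with 95% interval) of each of the 46 genes (y axis, grouped by complex), in *Jmjd1a* +/+ mice (blue) and *Jmjd1a* HY/HY mice (orange); filled dots were called, open dots were not. The blue dots reach 1.77 for *Cox10* and 30 are filled, while no orange dot is filled and the highest is 0.57, for *Foxred1*.

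The promoters of the 3 members with the largest and the 3 with the smallest response in *Jmjd1a* +/+ mice are printed, to show which binding motifs of known mitochondrial gene regulators stand near their start sites. Sequences from 150 bases before to 30 bases after the start, from RefSeq on GRCm38.p6 (the mm10 assembly), run 5′ to 3′ on the strand of the gene, with motif matches in capitals:
*Cox10* (chr11:64079443-64079622, minus strand): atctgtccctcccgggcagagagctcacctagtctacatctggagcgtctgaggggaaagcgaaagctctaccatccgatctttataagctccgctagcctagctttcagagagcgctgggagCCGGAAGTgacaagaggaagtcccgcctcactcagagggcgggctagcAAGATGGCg
*Atpaf2* (chr11:60417005-60417184, minus strand): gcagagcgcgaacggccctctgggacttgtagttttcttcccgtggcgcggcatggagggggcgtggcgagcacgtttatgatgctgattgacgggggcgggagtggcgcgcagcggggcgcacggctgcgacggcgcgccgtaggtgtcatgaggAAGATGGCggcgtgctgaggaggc
*Coa7* (chr4:108328002-108328181, plus strand): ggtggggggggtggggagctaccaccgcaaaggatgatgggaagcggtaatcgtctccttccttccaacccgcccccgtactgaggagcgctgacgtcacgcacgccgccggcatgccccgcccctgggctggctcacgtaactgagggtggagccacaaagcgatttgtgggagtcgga
*Coa4* (chr7:100536950-100537129, plus strand): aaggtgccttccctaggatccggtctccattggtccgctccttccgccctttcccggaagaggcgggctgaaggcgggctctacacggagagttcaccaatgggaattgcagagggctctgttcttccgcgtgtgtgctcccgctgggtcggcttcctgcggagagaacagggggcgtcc
*Cox14* (chr15:99725468-99725647, plus strand): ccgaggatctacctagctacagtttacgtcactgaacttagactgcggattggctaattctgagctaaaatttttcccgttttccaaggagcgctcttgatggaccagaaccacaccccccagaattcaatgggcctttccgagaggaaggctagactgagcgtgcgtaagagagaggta
*Surf1* (chr2:26916501-26916680, minus strand): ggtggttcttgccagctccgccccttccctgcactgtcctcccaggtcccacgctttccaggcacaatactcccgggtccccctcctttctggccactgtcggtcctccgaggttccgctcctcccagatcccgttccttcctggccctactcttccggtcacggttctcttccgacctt
*Cox10*, the gene with the largest rise, holds an ETS motif (CCGGAAGT, bound by GABPA among others) and a YY1 motif (AAGATGGC), and *Atpaf2*, the next, holds the YY1 motif. *Coa7*, with the third largest rise, holds neither of them, nor GCGCATGC, the core of the NRF1 motif, nor AAGGTCA, the motif of estrogen-related receptors. At the low end *Coa4* and *Surf1* hold none of the 4, while *Cox14* has an ETS motif just past the printed stretch. Genes with and without a motif thus stood at both ends.

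Of the 40 members with a promoter in the table used, taking 250 bases before and 50 after the start on both strands (matches of the NRF1 core on the 2 strands can overlap), 16 (40.0%) held at least 1 of the 4 motifs, against 4035 of 27025 genes (14.9%) and 30 of 65 subunits (46.2%). The ETS motif stood in 17.5% of the members and 4.31% of all genes, YY1 in 15.0% and 3.19%, NRF1 in 7.5% and 3.05%, and the motif of estrogen-related receptors in 2.5% and 5.38%. Members with a motif had a median cold response of 0.75 (log2, *Jmjd1a* +/+ mice), with 11 of 16 called higher. Members without had 0.97, with 15 of 24 called. Among all 46 members 65.2% were called higher, and among all genes 10.3%. The split was not tested. A match describes letters in this window and not binding.

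Complex IV, cytochrome c oxidase, has the most members, and among them the response ran from the largest to the smallest of all 46. Of its 18 factors, 10 were called higher with cold in *Jmjd1a* +/+ mice, against 10.3% of all genes. All 18 changes were above 0 (median log2 fold change 0.79). The genes of heme A synthesis moved unequally. *Cox10*, the farnesyltransferase that makes heme O from heme, stood at 11.5, 9.95 and 13.6 CPM at 30°C and at 39.0, 37.4 and 42.9 CPM at 8°C in *Jmjd1a* +/+ mice, a 3.42-fold rise (log2 1.77, SE 0.21, adjusted p = 0.000157 in edgeR). The HY/HY libraries held 10.1, 19.3 and 17.9 CPM at 30°C and 21.0, 23.2 and 21.9 CPM at 8°C. At 8°C all HY/HY libraries lay below all *Jmjd1a* +/+ libraries, and the difference was −0.85 on the log2 scale (SE 0.20, adjusted p = 0.0274).

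*Cox15*, which turns heme O into heme A and so follows *Cox10* in the same pathway, is outside the rule for named genes and was picked as its partner after its values were seen. It rose 1.64-fold with cold in *Jmjd1a* +/+ mice (log2 0.71, SE 0.17, adjusted p = 0.0112). At 8°C it stood at 43.9, 38.1 and 45.0 CPM in *Jmjd1a* +/+ and at 40.6, 40.1 and 46.6 CPM in HY/HY mice, groups that overlapped, with a log2 difference of 0.00 (95% interval −0.37 to 0.37). The ratio of *Cox10* to *Cox15* counts was 0.889 to 0.98 in *Jmjd1a* +/+ mice at 8°C and 0.383 to 0.628 in the 9 libraries of the other 3 groups. This ratio is a description, without a test.

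The copper genes likewise spread widely. *Cox11*, which delivers copper to the COX1 subunit, stood at 8.92, 8.32 and 7.38 CPM at 30°C and at 19.2, 21.2 and 21.3 CPM at 8°C in *Jmjd1a* +/+ mice (log2 1.32, SE 0.15, adjusted p = 0.000115 in edgeR). Its level in HY/HY mice was 8.55, 10.5 and 9.55 CPM at 30°C and 10.5, 14.3 and 10.7 CPM at 8°C. The *Jmjd1a* +/+ mice at 8°C stood above all other libraries, and the genotypes differed at 8°C by −0.79 (SE 0.15, adjusted p = 0.00921).

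*Cox19*, a small intermembrane space protein needed for copper metallation, rose from 31.8, 29.2 and 41.8 CPM to 79.9, 82.7 and 80.4 CPM in *Jmjd1a* +/+ mice (log2 1.24, SE 0.12, adjusted p = 6.03e-05), the lowest adjusted p among the members. Its HY/HY libraries held 41.8, 45.6 and 44.8 CPM at 30°C and 58.9, 51.8 and 56.9 CPM at 8°C, higher at 8°C in every library without passing the test (log2 0.34, adjusted p = 0.236). *Cox17*, which carries copper to the other factors, is the member with the smallest cold response of this role: it stood at 5.98, 8.47 and 6.53 CPM at 30°C and at 8.02, 8.97 and 9.10 CPM at 8°C in *Jmjd1a* +/+ mice, with overlapping groups (log2 0.31, adjusted p = 0.212). Among HY/HY mice it was 6.08, 5.19 and 7.32 CPM at 30°C and 5.11, 5.37 and 4.87 CPM at 8°C, and it was lower than in *Jmjd1a* +/+ mice at 8°C (log2 −0.76, SE 0.18, adjusted p = 0.0261). The older GENCODE M1 annotation places 89 exon bases of *Cox17* over *Popdc2* on the same strand, where reads could be assigned to neither gene.

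Of the other copper factors, *Sco1* and *Coa6*, which metallate the COX2 subunit, rose with cold in *Jmjd1a* +/+ mice, by 0.92 and 0.64 on the log2 scale. *Sco2*, their partner, was too sparse for a firm value, with 6 to 42 counts per library. It was at 2.0, 2.34 and 2.69 CPM in *Jmjd1a* +/+ and at 1.29, 0.874 and 0.487 CPM in HY/HY mice at 8°C, a called difference of −1.38 with a 95% interval from −2.11 to −0.65.

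Among the factors that build the modules around the mitochondrially made core subunits, *Coa3*, which stabilises newly made COX1, stood at 36.8, 35.7 and 44.8 CPM at 30°C and at 82.5, 76.8 and 77.9 CPM at 8°C in *Jmjd1a* +/+ mice (log2 1.02, SE 0.14, adjusted p = 0.000362 in edgeR). Its HY/HY values were 34.8, 44.9 and 47.5 CPM at 30°C and 48.9, 39.3 and 41.5 CPM at 8°C, groups that overlapped, with a log2 change of 0.03 (95% interval −0.27 to 0.32). At 8°C the genotypes differed by −0.87 (SE 0.14, adjusted p = 0.00387). *Cox20*, a chaperone of COX2, held 28.7, 28.1 and 27.2 CPM at 30°C and 54.2, 48.5 and 50.9 CPM at 8°C in *Jmjd1a* +/+ mice (log2 0.87, SE 0.11, adjusted p = 0.000246). The HY/HY libraries had 31.7, 40.4 and 41.7 CPM at 30°C, above all *Jmjd1a* +/+ libraries at that temperature, and 40.0, 44.5 and 43.8 CPM at 8°C.

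*Surf1*, which acts in the early COX1 module and is a common gene of Leigh syndrome in humans, did not move in any of these libraries beyond their spread. It stood at 56.2, 57.0 and 73.3 CPM at 30°C and at 61.9, 67.9 and 63.9 CPM at 8°C in *Jmjd1a* +/+ mice (log2 0.06, 95% interval −0.24 to 0.35), and in HY/HY mice at 58.0, 59.7 and 75.8 CPM and at 65.4, 59.7 and 73.6 CPM. The remaining members of this role, *Cox14*, *Cox16*, *Cox18* and *Pet100*, were not called in *Jmjd1a* +/+ mice in edgeR, with values from 0.09 to 0.55, while DESeq2 called *Cox18* higher (log2 0.59, adjusted p = 0.00425). *Cox16* shares 2152 of its exon bases with *Synj2bp* on the same strand in the GENCODE M1 annotation, and its 54 to 91 counts per library may miss reads of that stretch.

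Of the last complex IV factors, cysteine-rich proteins of the intermembrane space, *Coa7* rose from 8.74, 7.14 and 8.34 CPM to 24.6, 22.8 and 23.4 CPM in *Jmjd1a* +/+ mice, 2.93-fold (log2 1.55, SE 0.19, adjusted p = 0.000199 in edgeR). Its HY/HY libraries held 6.39, 11.2 and 11.2 CPM at 30°C and 13.5, 13.0 and 12.7 CPM at 8°C, below *Jmjd1a* +/+ at 8°C (log2 −0.86, SE 0.19, adjusted p = 0.0185). *Coa4* did not change detectably with cold in either genotype: it was at 6.43, 6.38 and 6.32 CPM at 30°C and at 6.24, 6.63 and 7.5 CPM at 8°C in *Jmjd1a* +/+ mice, and at 3.95, 5.64 and 4.72 CPM and 5.56, 5.18 and 4.95 CPM in HY/HY mice. Its HY/HY libraries lay below the *Jmjd1a* +/+ libraries at both temperatures, with unadjusted p = 0.0236 at 30°C and 0.0424 at 8°C in edgeR and adjusted p = 0.198 and 0.204. *Coa5*, the third of these, rose by 1.05 in *Jmjd1a* +/+ mice and was lower in HY/HY mice at 8°C by −0.63.

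**Figure D2:**
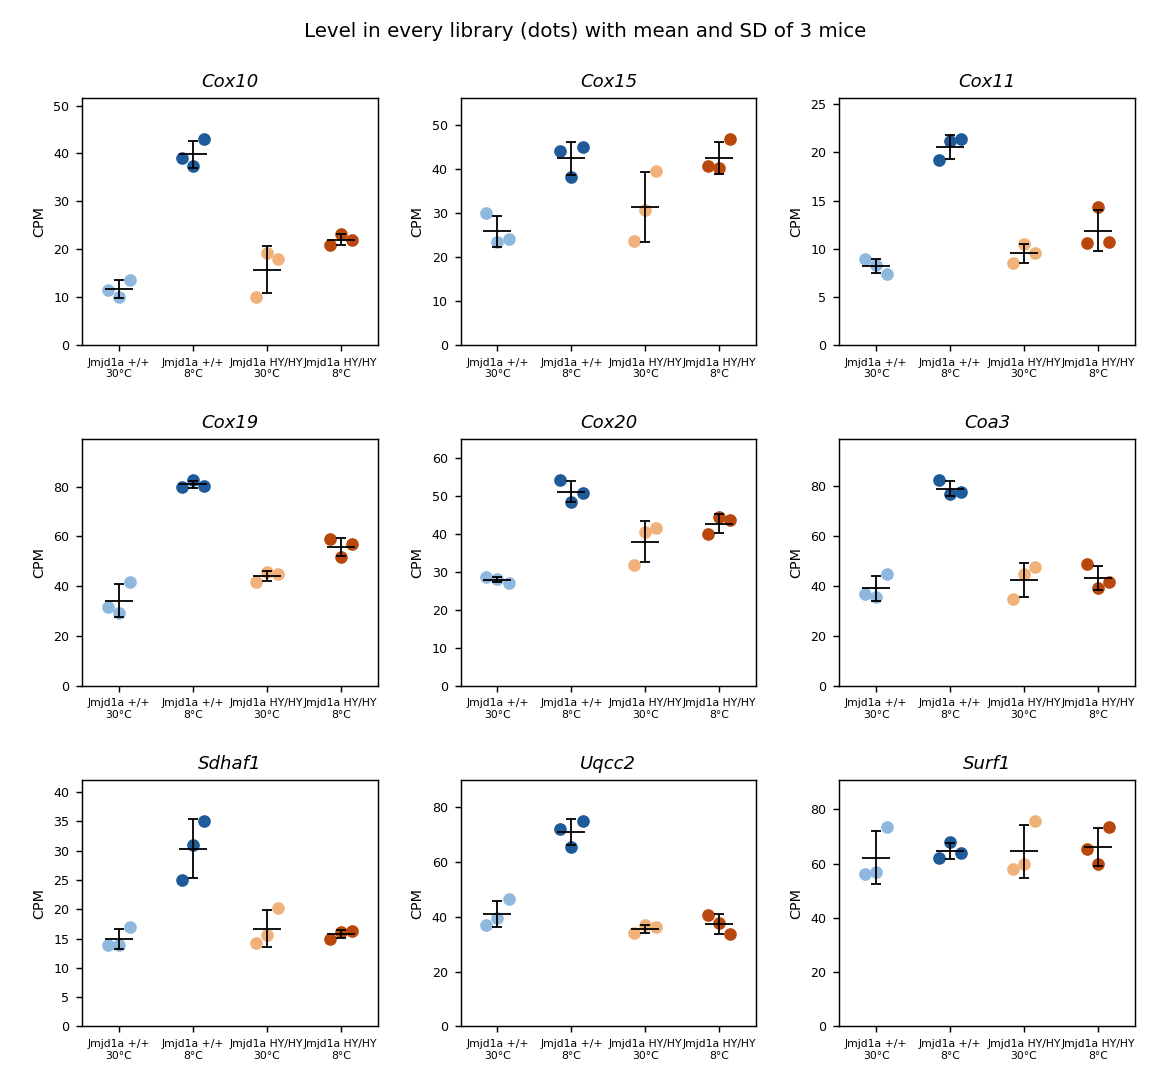
CPM (y axis, from 0) of 9 genes in each library, with black bars for mean and SD of 3 mice, for *Jmjd1a* +/+ (blue) and HY/HY (orange) mice at 30°C (light) and 8°C (dark). For the 7 genes called in the interaction, which these same libraries gave, the dark blue dots stand above every other group. Those of *Cox10* are at 37.4 to 42.9 CPM. *Cox15* is alike in both genotypes at 8°C, and *Surf1* overlaps in all 4 groups.

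Complex I has 14 factors, and 9 were called higher with cold in *Jmjd1a* +/+ mice, against 10.3% of all genes. All 14 changes were above 0 (median log2 fold change 0.76). In the MCIA complex, which builds part of the membrane arm, *Ecsit* rose from 34.9, 30.8 and 45.3 CPM to 89.1, 87.0 and 93.6 CPM in *Jmjd1a* +/+ mice, 2.43-fold (log2 1.28, SE 0.16, adjusted p = 0.000261 in edgeR). Levels in HY/HY mice were 30.6, 42.2 and 47.2 CPM and 51.4, 50.1 and 52.1 CPM, higher at 8°C in every library but not past the adjusted limit (log2 0.36, adjusted p = 0.337). At 8°C it was lower in HY/HY mice (log2 −0.81, SE 0.16, adjusted p = 0.0125). *Tmem126b*, a membrane protein of the same complex, was at 27.8, 26.9 and 35.1 CPM at 30°C and at 37.3, 38.5 and 41.0 CPM at 8°C in *Jmjd1a* +/+ mice (log2 0.38, adjusted p = 0.172), and at 26.3, 25.1 and 43.7 CPM and 40.7, 37.9 and 47.9 CPM in HY/HY mice (log2 0.41, adjusted p = 0.35). The other MCIA members *Ndufaf1* and *Acad9*, and *Timmdc1*, which guides a nearby intermediate, rose in *Jmjd1a* +/+ mice by 1.12, 0.73 and 0.70 on the log2 scale.

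*Ndufaf3* and *Ndufaf4* act together on the module that binds ubiquinone, yet they stood at opposite ends among the other complex I factors. *Ndufaf4* rose from 25.6, 21.7 and 20.9 CPM to 58.4, 62.5 and 66.6 CPM in *Jmjd1a* +/+ mice, 2.75-fold (log2 1.46, SE 0.22, adjusted p = 0.0009 in edgeR). *Ndufaf3* stood at 20.3, 20.0 and 27.3 CPM at 30°C and at 26.1, 25.5 and 25.7 CPM at 8°C, with overlapping groups (log2 0.19, 95% interval −0.09 to 0.48). In HY/HY mice *Ndufaf4* was at 16, 34.7 and 28.6 CPM at 30°C and 32.5, 42.3 and 38.0 CPM at 8°C, and *Ndufaf3* at 19.2, 22.9 and 21.8 CPM and 22.6, 20.0 and 20.5 CPM. Both were below *Jmjd1a* +/+ mice in every library at 8°C without reaching a call in edgeR (adjusted p = 0.0674 and 0.224), and DESeq2 called *Ndufaf4* (adjusted p = 0.0229).

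The others of this group included *Ndufaf5*, which hydroxylates an arginine of the NDUFS7 subunit, and *Ndufaf6*. They rose in *Jmjd1a* +/+ mice by 0.87 and 1.31 and were lower in HY/HY mice at 8°C by −0.69 and −0.70 (adjusted p = 0.0263 and 0.0499 in edgeR). *Foxred1*, a flavoprotein of late assembly, and *Ndufaf2*, a late chaperone, rose by 1.15 and 0.78 and were not called between the genotypes by either tool. *Ndufaf7*, a methyltransferase, *Ndufaf8*, the partner of NDUFAF5, and *Nubpl*, which serves the iron-sulfur clusters, were not called by cold in *Jmjd1a* +/+ mice by either tool, at 0.42 to 0.47. *Ndufaf8* was called lower in HY/HY mice at 8°C by DESeq2 alone (log2 −0.59, adjusted p = 0.00505).

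Complex II, succinate dehydrogenase, has 4 factors, and 3 were called higher with cold in *Jmjd1a* +/+ mice, against 10.3% of all genes. Without the limits on fold change all 4 passed, against 13.2% of all genes. *Sdhaf1*, which helps place the iron-sulfur clusters in SDHB, stood at 13.9, 13.9 and 17.0 CPM at 30°C and at 25, 31.0 and 35.1 CPM at 8°C in *Jmjd1a* +/+ mice, 2.03-fold higher (log2 1.02, SE 0.16, adjusted p = 0.00104 in edgeR). The level in HY/HY mice was 14.3, 15.6 and 20.2 CPM at 30°C and 14.9, 16.2 and 16.2 CPM at 8°C, overlapping (log2 −0.08, 95% interval −0.43 to 0.27). At 8°C the genotypes differed by −0.95 (SE 0.16, adjusted p = 0.0064). *Sdhaf3*, which works beside it, rose from 6.29, 5.62 and 6.48 CPM to 10.5, 13.0 and 14.4 CPM in *Jmjd1a* +/+ mice (log2 1.05, SE 0.18, adjusted p = 0.00206), and its HY/HY libraries held 7.04, 8.22 and 9.76 CPM and 8.28, 10.9 and 11.8 CPM, groups that overlapped.

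*Sdhaf2*, needed to attach flavin to SDHA, had the smallest response of the 4. It was at 38.1, 38.3 and 43.9 CPM at 30°C and at 49.5, 49.6 and 52.0 CPM at 8°C in *Jmjd1a* +/+ mice, without overlap but under the fold limit (log2 0.33, SE 0.10, adjusted p = 0.0331 in edgeR), and at 37.2, 39.2 and 45.8 CPM and 44.3, 44.0 and 47.4 CPM in HY/HY mice. *Sdhaf4*, which binds flavinylated SDHA, rose by 0.85 on the log2 scale in *Jmjd1a* +/+ mice.

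Complex III, the cytochrome bc1 complex, has 6 factors, and 5 were called higher with cold in *Jmjd1a* +/+ mice, against 10.3% of all genes. Without the limits on fold change all 6 passed, against 13.2% of all genes. *Uqcc2*, which accompanies newly made cytochrome b, rose from 37.0, 39.5 and 46.4 CPM to 72.1, 65.6 and 75 CPM in *Jmjd1a* +/+ mice (log2 0.79, SE 0.11, adjusted p = 0.000448 in edgeR). The HY/HY mice had 33.9, 36.8 and 36.1 CPM and 40.8, 37.8 and 33.7 CPM (log2 0.07, 95% interval −0.17 to 0.31). The HY/HY libraries at 8°C were inside or below the range of the *Jmjd1a* +/+ libraries at 30°C, and the difference between genotypes at 8°C was −0.92 (SE 0.11, adjusted p = 0.00121), the lowest adjusted p of that comparison among the members. *Uqcc3*, which acts after it on cytochrome b, was at 41.4, 46.2 and 55.9 CPM and at 71.8, 69.7 and 71.6 CPM in *Jmjd1a* +/+ mice, with a 1.49-fold change just under the limit (log2 0.57, SE 0.12, adjusted p = 0.00707; just above it in DESeq2, at 0.61), and at 39.9, 41.4 and 47.0 CPM and 49.9, 44.0 and 39.6 CPM in HY/HY mice. It was lower in HY/HY mice at 8°C (log2 −0.68, SE 0.12, adjusted p = 0.00906).

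*Lyrm7*, a chaperone of the Rieske iron-sulfur protein, had the largest response of complex III. It rose from 5.34, 4.72 and 7.49 CPM to 13.4, 13.5 and 12.8 CPM in *Jmjd1a* +/+ mice, 2.26-fold (log2 1.18, SE 0.21, adjusted p = 0.00229 in edgeR), and stood at 5.34, 7.46 and 7.22 CPM and at 6.60, 9.74 and 7.22 CPM in HY/HY mice, where the groups overlapped. *Bcs1l*, the ATPase that moves the Rieske protein across the inner membrane, *Ttc19*, which clears its fragments, and *Uqcc1*, the partner of *Uqcc2*, rose in *Jmjd1a* +/+ mice by 0.70, 0.79 and 1.15 on the log2 scale, and none of these was called between the genotypes at 8°C in edgeR. DESeq2 called *Uqcc1* lower in HY/HY mice at 8°C (log2 −0.59, adjusted p = 0.0328), and also *Lyrm7* (log2 −0.76, adjusted p = 0.0121).

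For ATP synthase, *Atpaf1* and *Atpaf2* encode the chaperones of the beta and alpha subunits, and they differed in size of response. *Atpaf2* rose from 41.8, 46.9 and 61.5 CPM to 157, 152 and 146 CPM in *Jmjd1a* +/+ mice, 3.03-fold (log2 1.60, SE 0.18, adjusted p = 0.000123 in edgeR). *Atpaf1* was at 11.8, 12.3 and 12.1 CPM and at 14.7, 17.3 and 19.5 CPM (log2 0.51, SE 0.21, adjusted p = 0.0903). In HY/HY mice *Atpaf2* stood at 48.9, 64.2 and 82.7 CPM at 30°C and at 99.6, 92.7 and 94.2 CPM at 8°C, above every 30°C library but below every *Jmjd1a* +/+ library at 8°C (log2 −0.67, SE 0.18, adjusted p = 0.0427), while *Atpaf1* stood at 11.4, 12 and 18.8 CPM and at 14.0, 15.2 and 20.8 CPM. *Tmem70*, which serves the ring of c subunits, rose by 1.33 in *Jmjd1a* +/+ mice.

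*Hccs*, the lyase that attaches heme to cytochrome c, rose from 12.9, 13.0 and 13.6 CPM to 29.0, 31.9 and 29.0 CPM in *Jmjd1a* +/+ mice, 2.28-fold (log2 1.19, SE 0.16, adjusted p = 0.000466 in edgeR). In HY/HY mice it stood at 10.9, 15.9 and 18.9 CPM at 30°C and at 21.0, 23.0 and 22.4 CPM at 8°C. No library of 1 temperature overlapped the other in either genotype, but in HY/HY mice the change of 0.54 did not pass (adjusted p = 0.177).

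At 8°C, 14 of the 46 assembly factor genes were called lower in *Jmjd1a* HY/HY than in *Jmjd1a* +/+ mice and 0 higher in edgeR, against 4.42% of all genes tested called lower, and 32 were not called. DESeq2 called 18 lower, against 5.82% of all genes. Neither DESeq2 nor an unadjusted p under 0.05 in edgeR gave any higher member. The 14 were *Ecsit*, *Ndufaf5*, *Ndufaf6*, *Sdhaf1*, *Uqcc2*, *Uqcc3*, *Cox10*, *Cox11*, *Cox17*, *Sco2*, *Coa3*, *Coa5*, *Coa7* and *Atpaf2*, with log2 differences from −0.63 for *Coa5* to −1.38 for *Sco2*. The median over the 46 was −0.41 against 0.01 over all genes, and 41 of 46 values were below 0. Without the fold limits 18 were lower, adding *Timmdc1*, *Ndufaf8*, *Sdhaf4* and *Cox19*, against 5.45% of all genes. Every HY/HY library lay below every *Jmjd1a* +/+ library in 33 of the 46, an arrangement seen in 19.0% of all genes.

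The 5 members at or above 0 in this comparison were *Cox15*, *Surf1*, *Acad9*, *Tmem126b* and *Cox16*, at 0.00 to 0.13 on the log2 scale. This comparison shares its *Jmjd1a* +/+ libraries at 8°C with the cold comparison of that genotype, so the values of both are given side by side and not related to each other. Beige markers were at 524 to 1663 CPM in HY/HY against 8321 to 9229 CPM in *Jmjd1a* +/+ mice at 8°C, with 5 of 6 called lower. Macrophage markers were at 285 to 404 CPM against 190 to 196 CPM, with 3 of 8 called higher in HY/HY mice. At 30°C the macrophage sums did not overlap either, at 261.5 to 450.5 CPM in HY/HY and 230.8 to 242.7 CPM in *Jmjd1a* +/+ mice, with 0 called. Of the 6 adipocyte markers 1 was called higher in HY/HY mice at 8°C. Their part was not tested. The count of 14 fell with the loss of any library at 8°C, to 7, 6 and 5 without *Jmjd1a* +/+ replicate 1, 2 or 3 and to 5, 9 and 3 without HY/HY replicate 1, 2 or 3, and it was 7 with library totals as the scaling. The median then ranged from −0.46 to −0.39 when 1 library was left out.

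**Figure D3:**
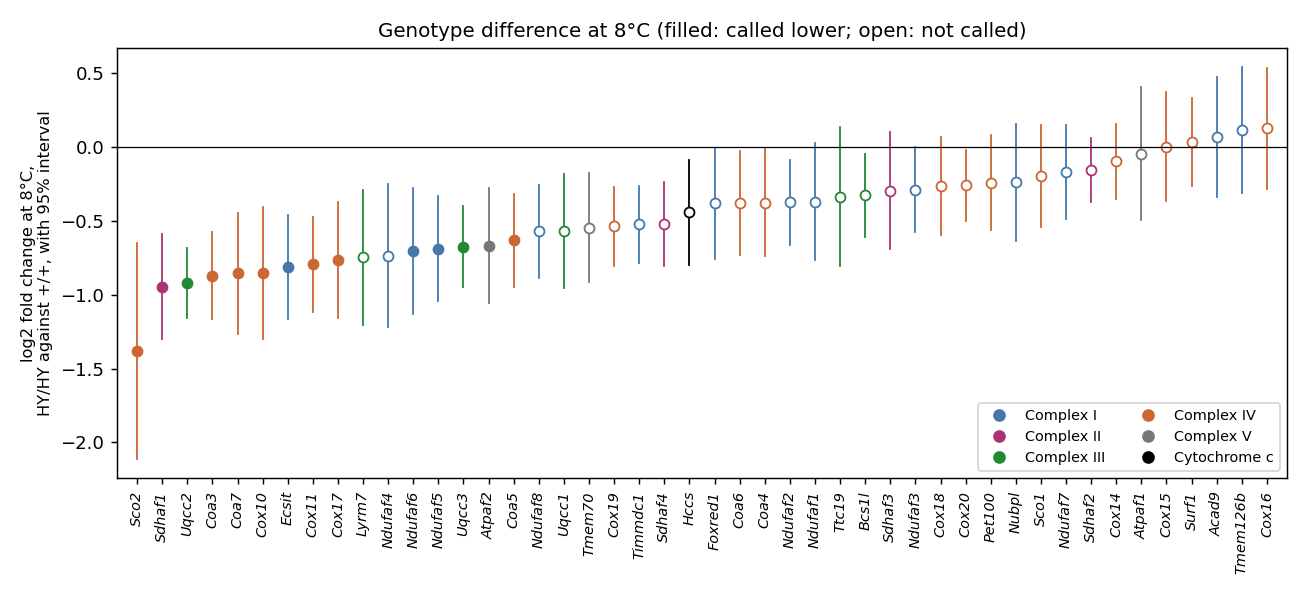
Log2 difference at 8°C, *Jmjd1a* HY/HY against *Jmjd1a* +/+ mice (y axis, with 95% interval), of the 46 genes in order of size (x axis), coloured by complex; filled dots were called. The 14 filled dots span −1.38 (*Sco2*) to −0.63 (*Coa5*), and the 5 dots at the right, at 0.00 to 0.13, include *Cox15* and *Surf1*.

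At 30°C no member was called between the genotypes, in edgeR or in DESeq2, while 1.00% of all genes were called in either direction. At an unadjusted p under 0.05 in edgeR, 3 members were higher in HY/HY mice and 1 was lower, no larger a share than among all genes, of which 8.36% were higher and 10.3% lower. The 3 were *Sdhaf3*, *Cox20* and *Cox19*, at 0.44, 0.44 and 0.37 on the log2 scale with adjusted p = 0.221, 0.0718 and 0.148, and the 1 was *Coa4* at −0.42. In DESeq2 *Cox20* had an adjusted p of 0.0148 at 30°C, with a log2 difference of 0.45 that was under the fold limit. At 8°C its difference in DESeq2 was −0.28 (adjusted p = 0.164). The median over the 46 was 0.15 against −0.01 over all genes, and 37 of 46 values were above 0. This median rested on single libraries: it was 0.03, with 25 of 46 above 0, without HY/HY replicate 3 at 30°C, 0.10 without *Jmjd1a* +/+ replicate 1, 0.23, with 41 above 0, without *Jmjd1a* +/+ replicate 3, and 0.27 without HY/HY replicate 1, and it was 0.07 with library totals as the scaling. Without HY/HY replicate 1 at 30°C, 1 member was called, *Cox10*.

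The interaction compares the cold response of HY/HY mice with that of *Jmjd1a* +/+ mice directly. It was negative at an adjusted p under 0.05 for 7 of the 46 members in edgeR, against 2.07% of all genes tested. These were *Cox10* (−1.29, SE 0.29, adjusted p = 0.0428), *Sdhaf1* (−1.11, SE 0.23, 0.0315), *Cox11* (−1.01, SE 0.21, 0.0321), *Coa3* (−0.99, SE 0.19, 0.027), *Cox19* (−0.90, SE 0.17, 0.0263), *Uqcc2* (−0.72, SE 0.15, 0.036) and *Cox20* (−0.70, SE 0.15, 0.0398). By role, 5 of the 7 serve complex IV, 1 complex II and 1 complex III, and none serves complex I or ATP synthase, where 0 of 14 and 0 of 3 passed, with 9 and 2 at an unadjusted p under 0.05 (9.61% of all genes) and 3 and 2 passing with DESeq2. The median over the 46 was −0.56 against 0.04 over all genes, and 42 of 46 values were negative.

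The smallest differences in cold response were those of *Coa4* at 0.04, *Tmem126b* at 0.03, *Cox14* at 0.02, *Cox16* at 0.01 and *Surf1* at −0.02, with 95% intervals such as −0.44 to 0.41 for *Surf1* and −0.57 to 0.63 for *Tmem126b*. The number of genes past the limit was unstable. It was 15 with DESeq2, against 4.30% of all genes, and 2 with library totals, and on leaving out 1 library it was 0 without *Jmjd1a* +/+ replicate 1 or 2 at 30°C, *Jmjd1a* +/+ replicate 2 or 3 at 8°C, HY/HY replicate 2 at 30°C, or HY/HY replicate 1 or 3 at 8°C. It was 1 without *Jmjd1a* +/+ replicate 1 or HY/HY replicate 2 at 8°C, 3 without HY/HY replicate 3 at 30°C, 12 without *Jmjd1a* +/+ replicate 3 at 30°C and 17 without HY/HY replicate 1 at 30°C. The median ranged from −0.66 to −0.45 over these 12 fits.

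Set against the structural subunits, the assembly factors had medians nearer 0 on the log2 scale in both cold comparisons, between the genotypes at 8°C and in the interaction. With cold in *Jmjd1a* +/+ mice 71 of 76 subunits were called higher, against 10.3% of all genes, and 75 were above 0. Their median was 1.5 against 0.82 for the members. In HY/HY mice 0 of 76 were called in edgeR, with 32 higher at an unadjusted p under 0.05, against 7.65% of all genes. DESeq2 called 2 of them higher, against 211 of all 16540 genes. The median in HY/HY mice was 0.37 against 0.24 for the members. At 8°C 66 of 76 subunits were called lower in HY/HY mice, against 4.42% of all genes, with a median of −1.0 against −0.41. In the interaction 46 were called negative, against 2.07% of all genes, with a median of −1.14 against −0.56. The subunit counts also moved with single libraries: in the interaction from 11 without HY/HY replicate 1 at 8°C to 67 without *Jmjd1a* +/+ replicate 3 at 30°C, with cold in HY/HY mice to 13 without HY/HY replicate 3 at 30°C, and at 8°C to 42 without HY/HY replicate 3 at that temperature. These medians describe the lists, and the difference between them was not tested. No subunit was called against the direction of its list with TMM scaling, and 1 was called lower with cold in *Jmjd1a* +/+ mice with library totals. By complex, the medians of factors and subunits with cold in *Jmjd1a* +/+ mice were 0.76 and 1.5 for complex I, 0.94 and 1.57 for complex II, 0.79 and 1.93 for complex III, 0.79 and 1.45 for complex IV, and 1.33 and 1.44 for complex V.

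The levels behind these changes were of different size. Per kilobase of exon, the median level was 8.66 CPM for the 46 assembly factors and 137 CPM for the 76 subunits in *Jmjd1a* +/+ mice at 30°C, and 16.6 and 365 CPM at 8°C. In HY/HY mice it was 10.8 and 154 CPM at 30°C and 13.0 and 196 CPM at 8°C. *Coa3* had the highest factor level per kilobase in *Jmjd1a* +/+ mice at 8°C, 89.2 CPM, and *Cox16* the lowest, 1.08 CPM.

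Summed over the 46 genes, the members held 1148 ± 130 CPM (SD, n = 3) in *Jmjd1a* +/+ mice at 30°C and 2116 ± 78.3 CPM at 8°C, and 1265 ± 221 CPM and 1530 ± 52.6 CPM in HY/HY mice. The *Jmjd1a* +/+ libraries of the 2 temperatures did not overlap, at 1069 to 1299 and 2039 to 2196 CPM. In HY/HY mice they met, at 1055 to 1495 CPM and 1495 to 1590 CPM. The ratio of summed subunit to summed factor CPM was 13.2 to 15.7 in *Jmjd1a* +/+ mice and 14.2 to 14.9 in HY/HY mice at 30°C, 21.0 to 22.6 in *Jmjd1a* +/+ mice at 8°C and 15.0 to 16.6 in HY/HY mice at 8°C. The 3 libraries of *Jmjd1a* +/+ mice at 8°C thus stood apart from the other 9 in this ratio. It is dominated by the abundant genes and was given no test.

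**Figure D4:**
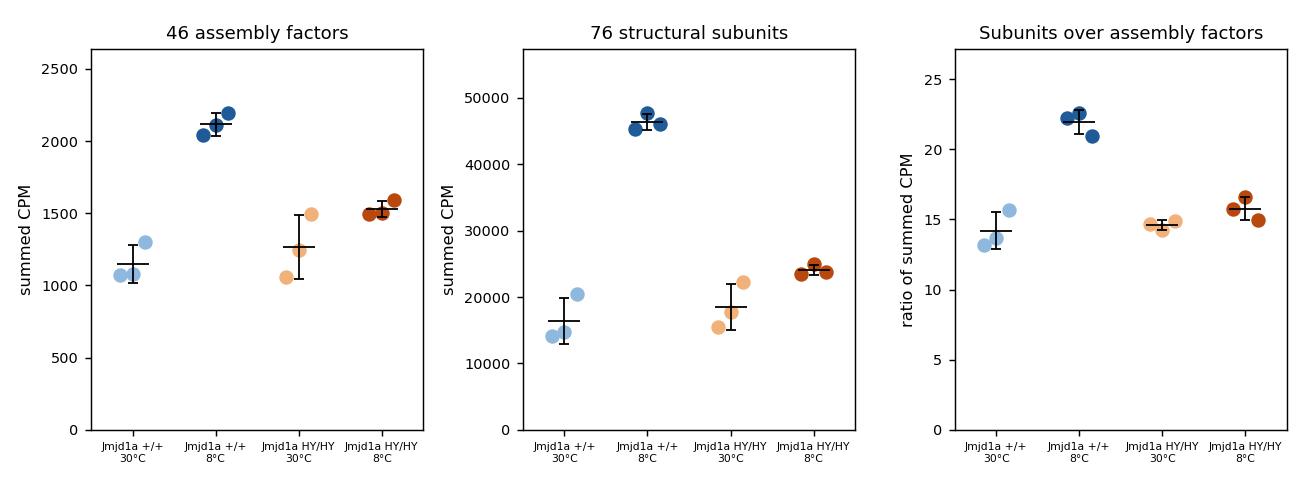
Summed CPM (y axis, from 0) of the 46 assembly factors (left) and 76 subunits (middle), and the ratio of the second to the first (right), in each library, with mean and SD of 3 mice. The ratio is 21.0 to 22.6 in *Jmjd1a* +/+ mice at 8°C and 13.2 to 16.6 in the other 9 libraries.

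A further list of 25 assembly factors outside the 46, of which 21 could be matched and tested, was read in the same 12 libraries. It too was chosen with earlier results of these data known, so its counts add no independent support. With cold in *Jmjd1a* +/+ mice 13 of 21 were called higher (median log2 fold change 0.66), against 10.3% of all genes. In HY/HY mice 0 were called in edgeR, with 5 higher at an unadjusted p under 0.05, against 7.65% of all genes. DESeq2 called 3 of them higher there, against 211 of all 16540 genes. At 8°C 9 were called lower in HY/HY mice (median −0.55), against 4.42% of all genes. In the interaction 4 were called negative (median −0.68), against 2.07%. Among 6 regulators of mitochondrial genes, *Ppargc1a*, *Ppargc1b*, *Esrra* and *Gabpa* rose with cold in *Jmjd1a* +/+ mice, by 2.72, 1.52, 1.22 and 1.1 on the log2 scale, and were lower in HY/HY mice at 8°C, by −1.33, −1.76, −0.90 and −0.64. *Nrf1* and *Yy1* were not called in either.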

How the data were processed

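Total RNA of scWAT was made into TruSeq libraries and sequenced as paired reads. The authors trimmed adapters and low-quality bases (fastp) and used STAR for alignment to mm10, and the deposited counts are unnormalised read pairs per gene, for the 2 strands summed and separately, under GENCODE M25 gene IDs. How the pairs were counted, the counter and its version, is not given in the sources used here. The submitters' processing notes also name FastQC and StringTie. The sense-strand counts were used here. Of the gene counts of both strands, 95.5% to 96.2% were on this strand, and entries naming no gene stayed out of library sizes: unaligned pairs were 25.1% to 28.8% and multimapping pairs 26.7% to 32.2% of all 31873975 to 61065333 pairs.

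Symbols came from GENCODE M1 and RefSeq tables, which pair 32589 of the 55401 IDs with a symbol. Genes were kept by filterByExpr (16540), scaled by TMM, and fitted with edgeR 4.0.16 (quasi-likelihood, R 4.3.3) as 1 mean per group over all 12 libraries, which left 8 residual degrees of freedom (common BCV, the biological coefficient of variation between mice, 20.7%). P-values are two-sided and adjusted by Benjamini-Hochberg over all genes tested. For the interaction an adjusted p under 0.05 alone made a call. Alternatives used DESeq2 1.42.0, library totals, other filters, both strands, no fold limits and single libraries left out. The model was also run on simulated counts in which 200 genes changed in *Jmjd1a* +/+ mice at 8°C. The simulated libraries were independent, so that run cannot speak to shared deviations of replicates or to the library with muscle RNA. Each p-value sets a difference against the spread between mice within groups, estimated over all 4 groups and without a replicate block. With 3 against 3 libraries an exact permutation p cannot fall below 0.1, so none was used.

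The members and all lists were chosen with earlier results of these data known. Named genes were, in each role group, those with the largest and smallest cold response in Jmjd1a +/+ mice (1 where the group has 1 or 2 members), and all called in the interaction, lower by cold in Jmjd1a +/+ mice, or between genotypes at 30°C. Intervals are at 95%. Levels per kilobase used GENCODE M1 exon lengths, which are of an older annotation than the counts.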

Additional observations from a re-analysis of the deposited data

Results flagged for a closer look

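For 7 members the cold response differed between the genotypes by the interaction test, which flagged them. The difference, *Jmjd1a* HY/HY minus *Jmjd1a* +/+ on the log2 scale, was −1.29 for *Cox10*, −1.11 for *Sdhaf1*, −1.01 for *Cox11*, −0.99 for *Coa3*, −0.90 for *Cox19*, −0.72 for *Uqcc2* and −0.70 for *Cox20*. In each of the 7 the 3 *Jmjd1a* +/+ libraries at 8°C lay above the 3 at 30°C, and above the 3 HY/HY libraries at 8°C. Over all genes tested, 20.7% and 19.0% showed these arrangements. The same libraries gave the interaction, so the arrangement follows in part from the choice of the 7 and adds no support. Groups of 3 were not screened for single outlying libraries.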

How the results depend on the processing

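With library totals in place of TMM 18 members were called higher by cold in *Jmjd1a* +/+ mice (median log2 fold change 0.49). Called lower in HY/HY mice at 8°C were 7, and called negative in the interaction were 2. The interaction count was 15 with DESeq2. On leaving out 1 library, the counts ranged from 28 to 33 for cold in *Jmjd1a* +/+ mice, from 0 to 9 for cold in HY/HY mice, from 3 to 16 for the genotypes at 8°C, from 0 to 1 for the genotypes at 30°C and from 0 to 17 for the interaction. No called result changed direction under any alternative run. With other filters, both strands together or only the libraries of the comparison, the members' median for cold was 0.76 to 0.84 in *Jmjd1a* +/+ mice. In HY/HY mice it was 0.22 to 0.24. Between the genotypes it was −0.42 to −0.38 at 8°C and 0.14 to 0.18 at 30°C, and in the interaction −0.58 to −0.55. Leaving out 1 library moved some of these medians further, as given above.

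Replicate numbers recur across groups but mark different mice. Of 18 same-numbered pairs of libraries, 11 had correlated deviations over 0.1 (median 0.115, from −0.07 to 0.35). Of 36 pairs with different numbers, 5 did (median −0.05, from −0.29 to 0.18). Same-numbered libraries thus deviated together more often, though not in every pair. The fits reported above held no replicate block. In 7 of 12 libraries the best correlation was with the own number. With the replicate block the interaction gave 13 members, and the other counts were 30, 0, 16 and 0. For the interaction, the fit on the libraries of the comparison alone is the same as the one reported, since it uses all 12.

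Depth limited *Sco2* and *Cox16* most, with counts as low as 6 and 54 per library. With 3 mice per group, the 95% intervals of the members' fold changes were wide enough to hold differences that passed no test.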
